A study of Mus musculus with 8 samples.

Results

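Regulators of the meiotic divisions were compared between testes of mice lacking Brwd1 and of controls aged 27 days. The members are 9 genes, Ccna1, Ccnb1, Ccnb2, Cdk1, Cdc25c, Plk1, Aurkc, Spdya and Cks2, taken by their symbols in the array's annotation. Of these, 8 had probe sets, 11 in all out of 45101 on the array, and the array named 18193 genes by a single symbol. Ccnb1 was not analysed here. A further probe set carries the names of both Spdya and Mettl4-ps1, so its signal cannot be given to either gene, and it is described but not counted. RNA of the whole testis was hybridised to Affymetrix arrays, 1 array per mouse, from 4 mice labelled MT with the genotype Brwd1-/- and 4 mice titled wild type. The genotype entry of these controls reads Brwd1+/-, so a mutant copy in these mice is possible. The name in the titles, wild type, is used below. No mouse was treated, per the labels, which do not describe the allele. Mice of this age are in the first wave of spermatogenesis. Per the series' design text, their germ cells had passed through meiosis and were partway through spermatid development. Genes of spermatogonia and spermatocytes also gave signal in these testes, as described further on.

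Entry into the meiotic divisions depends on the kinase Cdk1, which is active only when bound to a B-type or A-type cyclin. The phosphatase Cdc25c removes inhibitory phosphates from Cdk1, the polo-like kinase Plk1 helps to switch this activation on and acts again at spindle poles and kinetochores, and aurora kinases correct faulty attachments of chromosomes to the spindle. In the mouse testis, cyclin A1 (Ccna1), the small Cdk-binding protein Cks2 and Spdya, a protein that activates Cdk2 without being a cyclin, are each needed for spermatocytes to complete meiosis, and Aurkc is the aurora kinase of germ cells.

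The promoters of some members are shown for reference. Whether their motifs bear on the members' values was not tested. Sequences are from RefSeq, build GRCm38.p6, and were examined for 8 of the 9 members, with Ccnb1 among them and Cdc25c left out. The 250 bases before each annotated start were searched on both strands for 3 motifs: the cell cycle homology region (CHR) TTTGAA, the CCAAT box CCAAT and the MYB site TAACNG, none of which contains another. Of 32851 promoters of this length in the table, 15.99% held TTTGAA, 33.8% held CCAAT and 19.8% held TAACNG. Cdk1 held 2 copies of TTTGAA and 3 of CCAAT, 1 CCAAT beginning 208 bases before the start and so outside the stretch printed. Ccnb2 held 1 copy of TTTGAA, beginning 167 bases before the start and so beyond the stretch printed, and 3 of CCAAT. A CHR together with 2 or more CCAAT boxes occurred in 1.53% of all promoters. Cks2 and Ccnb1 each held 2 copies of CCAAT, where 10.1% of all promoters held 2 or more, Ccna1, Plk1 and Spdya 1 each, and Aurkc none of the 3 motifs. The only TAACNG among these promoters was in Spdya. Such matches describe letters, not binding. The last 150 bases before the start are printed 5′ to 3′ in the direction of the gene, with matches on either strand in capitals, for the kinase, a cyclin and the Cdk-binding subunit with repeated CCAAT boxes, and for Aurkc, whose mutant values lay above all wild-type values.
Cdk1 (chr10:69352913-69353062, minus strand): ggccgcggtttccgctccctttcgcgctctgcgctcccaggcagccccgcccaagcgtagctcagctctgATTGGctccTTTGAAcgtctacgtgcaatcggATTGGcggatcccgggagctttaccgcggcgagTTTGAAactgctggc
Ccnb2 (chr9:70421555-70421704, minus strand): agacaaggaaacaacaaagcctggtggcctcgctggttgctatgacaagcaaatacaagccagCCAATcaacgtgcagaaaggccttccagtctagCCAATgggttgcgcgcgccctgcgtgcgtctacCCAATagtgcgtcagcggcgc
Cks2 (chr13:51645082-51645231, plus strand): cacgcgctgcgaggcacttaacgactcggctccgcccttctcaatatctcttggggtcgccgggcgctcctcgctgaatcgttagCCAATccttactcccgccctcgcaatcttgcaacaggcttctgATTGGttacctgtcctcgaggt
Aurkc (chr7:6995235-6995384, plus strand): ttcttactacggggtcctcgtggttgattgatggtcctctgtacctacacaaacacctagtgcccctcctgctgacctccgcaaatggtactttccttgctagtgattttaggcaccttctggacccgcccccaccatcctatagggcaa

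The deposited values are intensities on a linear scale, each array scaled to the same trimmed mean of 500, with medians of 90.7 to 124. Genotypes were compared with limma on log2(intensity + 16) over 27022 probe sets that passed a filter on dim signals, and calls were made at a Benjamini-Hochberg adjusted p under 0.05. All 11 member probe sets passed that filter. Where a gene had a pair of them they are called the brighter and the dimmer, which names the probe sets and does not rank transcripts. Precision is limited by having 4 arrays of each genotype, and p-values measure the spread between mice. Replicates 1 and 2 of both genotypes stood apart from replicates 3 and 4 along the leading principal component, which held 53.8% of the variance. The labels give no reason for this, so genotypes were compared in 3 models: unblocked, with a block for the replicate number, and with a block for this split. Brwd1 was not called lower in mutants. Its brightest probe set read 236, 134, 525 and 519 in mutant replicates 1 to 4 and 226, 207, 396 and 528 in wild-type replicates 1 to 4. Without knowing where the allele lies relative to these probes, the signal does not check the genotype.

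No member was called between genotypes, and the measured differences were small. Over the 11 probe sets the log2 difference, mutant minus wild type, ran from -0.52 to 0.39, with a median of 0.02 against 0.07 over all probe sets tested. Aurkc alone was higher in every mutant than in every wild-type mouse, by 0.39 on the log2 scale. Such separation upward occurred in 2.26% of the probe sets tested. Both probe sets of Cdc25c, and Plk1, had negative log2 differences between -0.52 and -0.34. The remaining differences lay between -0.16 and 0.22.

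**Figure D1:**
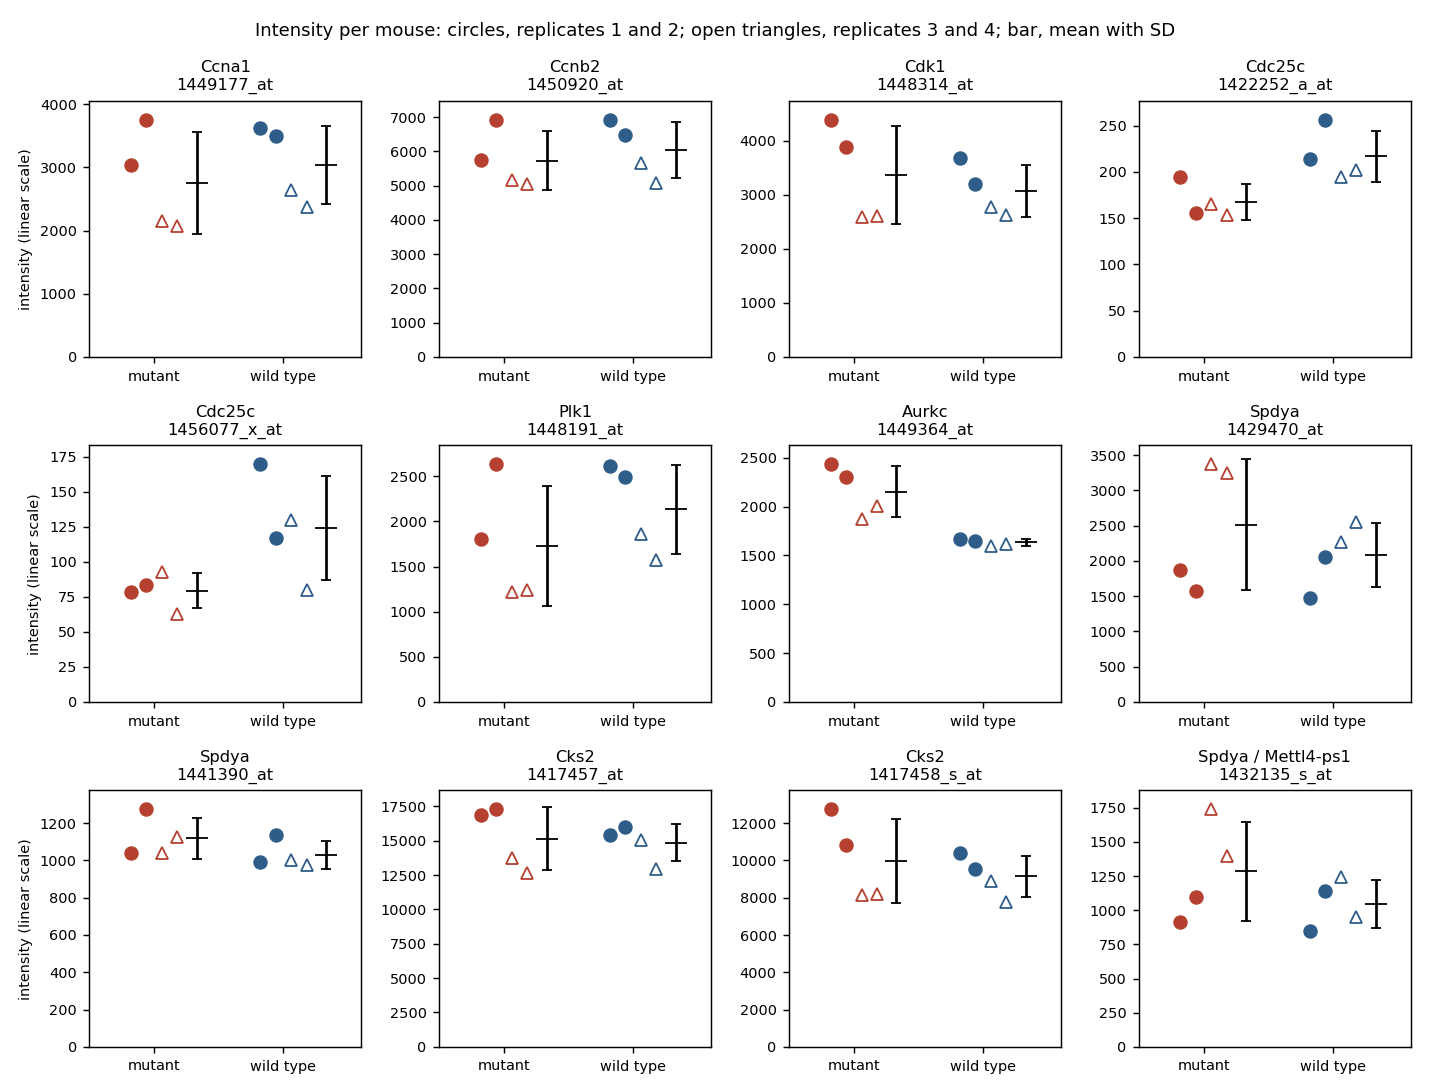
Intensity (linear scale, from 0) of each member probe set and of the probe set shared by Spdya and Mettl4-ps1 in each mouse, mutants left and wild type right. Circles are replicates 1 and 2, open triangles replicates 3 and 4, and the bar gives the mean with SD (n = 4). Aurkc is higher in all mutants, and Ccna1, Ccnb2, Cdk1 and Cks2 are lower in replicates 3 and 4 of both genotypes.

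Aurkc, the aurora kinase of germ cells, read 2432, 2304, 1874 and 2003 in mutant replicates 1 to 4, against 1669, 1653, 1595 and 1619 in wild-type replicates 1 to 4. The wild-type mice lay within a narrow band and all mutants lay above it. The mean was 2154 ± 259 in mutants and 1634 ± 33.4 in wild type (SD, n = 4 each). The log2 difference was 0.39 with a standard error of 0.12 and a 95% confidence interval of 0.11 to 0.67. It did not pass the test over all probe sets, with an adjusted p of 0.351 in limma without a block. Blocking by replicate number gave 0.123 and blocking by the split gave 0.0716 (limma, adjusted p). Within replicates 1 and 2 the log2 difference was 0.51, and it was 0.27 within replicates 3 and 4. All mutants lay above all wild-type mice in 2.26% of the probe sets tested, and below them in 3.83%.

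Cdc25c, the phosphatase that activates Cdk1, was measured by a pair of dim probe sets with negative differences. The brighter probe set read 195, 156, 165 and 154 in mutant replicates 1 to 4, against 214, 257, 194 and 202 in wild-type replicates 1 to 4. Only mutant replicate 1 reached into the wild-type range, just above wild-type replicate 3. The log2 difference was -0.34 with a standard error of 0.16 and a 95% confidence interval of -0.70 to 0.017 (limma, adjusted p = 0.711). The dimmer probe set, of a class in which some probes match other sequences too, read 78.6, 83.5, 92.5 and 62.9 in mutant replicates 1 to 4, against 169, 117, 130 and 79.8 in wild-type replicates 1 to 4. Its groups overlapped through wild-type replicate 4. The log2 difference was -0.52, its standard error 0.23 (limma, adjusted p = 0.677). With the split as a block the intervals were -0.65 to -0.029 and -1.01 to -0.043, and the adjusted p was 0.296 and 0.298.

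Plk1, the polo-like kinase, read 1811, 2632, 1221 and 1237 in mutant replicates 1 to 4, against 2611, 2489, 1858 and 1575 in wild-type replicates 1 to 4. Mutant replicate 2 was the highest mouse of all, while both mutants of replicates 3 and 4 lay below every other mouse. The log2 difference was -0.35 with a standard error of 0.27 and a 95% confidence interval of -0.96 to 0.27 (limma, adjusted p = 0.986). With the split as a block the standard error was 0.13 and the adjusted p 0.255. Within replicates 1 and 2 the difference was -0.22, and it was -0.47 within replicates 3 and 4.

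The cyclins were not called between genotypes. Ccna1 read 3038, 3758, 2154 and 2066 in mutant replicates 1 to 4, against 3630, 3503, 2639 and 2376 in wild-type replicates 1 to 4. Its log2 difference was -0.16 with a 95% confidence interval of -0.67 to 0.35, and -0.38 to 0.054 with the split as a block. Ccnb2, a B-type cyclin, read 5757, 6931, 5166 and 5047 in mutant replicates 1 to 4, against 6909, 6485, 5668 and 5091 in wild-type replicates 1 to 4. In both genes the wild-type values lay within the range of the mutants. The log2 difference of Ccnb2 was -0.078, with a 95% confidence interval of -0.40 to 0.25.

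Cdk1 and its small partner Cks2 were likewise not called. Cdk1 read 4397, 3885, 2598 and 2611 in mutant replicates 1 to 4, against 3690, 3204, 2784 and 2622 in wild-type replicates 1 to 4. The mutants were the higher mice in replicates 1 and 2 and the lower ones in replicates 3 and 4. The log2 difference of 0.11 (95% confidence interval -0.35 to 0.57) was 0.26 in replicates 1 and 2 alone and -0.053 in replicates 3 and 4 alone. Cks2 binds Cdk1 and helps it to act on its substrates. Its brighter probe set read 16880, 17276, 13721 and 12653 in mutant replicates 1 to 4, against 15448, 16025, 15069 and 12925 in wild-type replicates 1 to 4, and its log2 difference was 0.018 (95% confidence interval -0.27 to 0.30). The dimmer one read 8122 to 12739 in mutants and 7787 to 10398 in wild type, with a log2 difference of 0.10.

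Spdya, the non-cyclin activator of Cdk2, had probe sets that behaved differently from each other. The brighter probe set read 1869, 1577, 3369 and 3247 in mutant replicates 1 to 4, against 1470, 2051, 2268 and 2548 in wild-type replicates 1 to 4. The highest mice were the mutants of replicates 3 and 4, and the genotypes overlapped. The log2 difference was 0.22 (95% confidence interval -0.41 to 0.85), with -0.017 for replicates 1 and 2 taken alone and 0.46 for replicates 3 and 4 taken alone. The dimmer probe set read 1041, 1273, 1038 and 1124 in mutant replicates 1 to 4, against 993, 1138, 1004 and 976 in wild-type replicates 1 to 4. It ran from 976 to 1273 over all mice, with a log2 difference of 0.12 (95% confidence interval -0.17 to 0.41). The probe set shared with Mettl4-ps1 read 911, 1099, 1738 and 1399 in mutant replicates 1 to 4, against 849, 1141, 1243 and 954 in wild-type replicates 1 to 4, with a log2 difference of 0.27 (limma, adjusted p = 0.988).

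In all, 0 of 11 member probe sets passed limma's test without a block, where 0.115% of all probe sets did, all of these lower in mutants. At an unadjusted p under 0.05 the count was 1 of 11, Aurkc, where 7.43% of all probe sets passed. In the model with the replicate block 0 of 11 passed against 2.39% of all probe sets, 2.18% lower and 0.215% higher. In the model with the split as a block it was 0 of 11 against 1.79%, 1.48% lower and 0.311% higher. Unadjusted p-values under 0.05 numbered 3 of 11 with the replicate block (Aurkc, Plk1 and the dimmer probe set of Cdc25c), against 14.3% of all probe sets. With the split as a block they numbered 4 of 11 (the other probe set of Cdc25c as well), against 14.6%. Without a block they numbered 0 of 11 after median centring, where 1675 of 27022 probe sets passed. With array weights they numbered 6 of 11, where 5526 of 27022 did. A miss of the threshold does not show that a gene was unchanged. The intervals given above state which differences the arrays leave possible. Whether a member's genotype difference itself differed between replicates 1 and 2 and replicates 3 and 4, a test chosen after seeing the data, was called for 0 of 11 (limma interaction term, smallest adjusted p = 0.789), and for 0 of all probe sets, of which 1420 had an unadjusted p under 0.05.

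**Figure D2:**
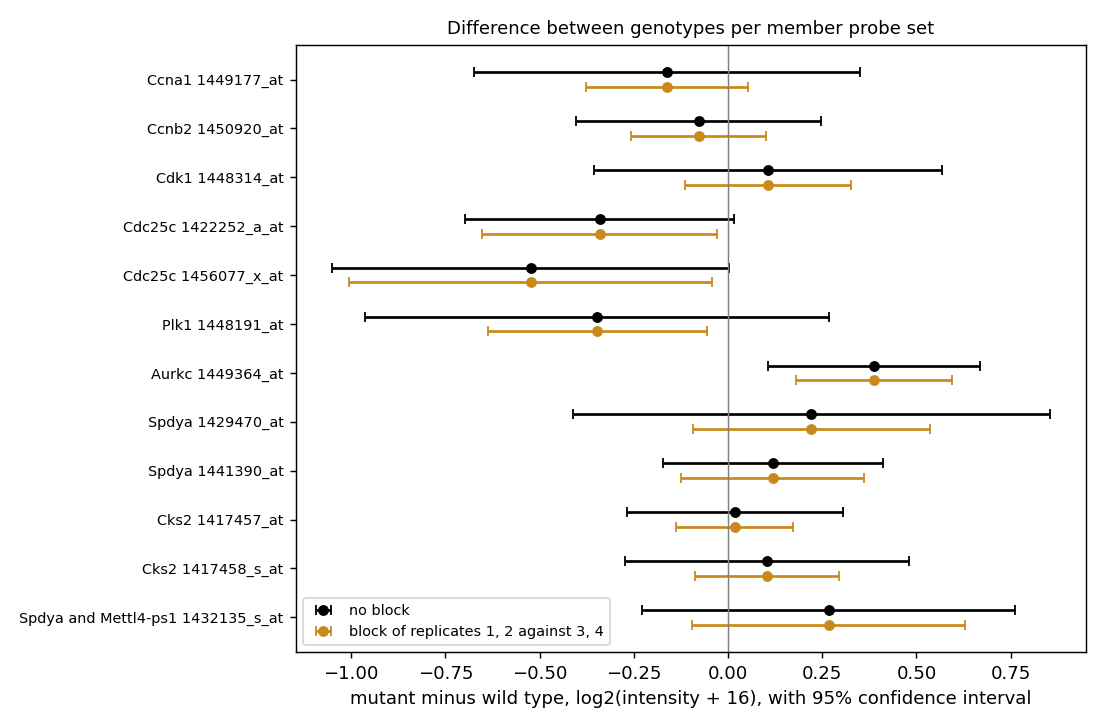
Log2 difference, mutant minus wild type, of each member probe set and the shared one, with 95% confidence intervals from limma without a block (black) and with replicates 1 and 2 against 3 and 4 as a block (orange). Without a block only the interval of Aurkc, 0.11 to 0.67, excludes 0. With the block those of Cdc25c and Plk1 do too.

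The larger contrast among the members ran between replicates 3 and 4 and replicates 1 and 2. With genotype in the model, 7 of 11 member probe sets differed, 6 lower and 1 higher in replicates 3 and 4, where 40.9% of all probe sets differed, 17.6% lower and 23.3% higher. The mean of Plk1 was 1473 ± 304 over replicates 3 and 4, against 2386 ± 388 over replicates 1 and 2 (SD, n = 4 each), a log2 difference of -0.70 (limma, adjusted p = 0.00263). Ccna1 had a mean of 2309 ± 256 over replicates 3 and 4, against 3482 ± 314 over replicates 1 and 2, a log2 difference of -0.59 (limma, adjusted p = 0.00138). Cdk1 fell by 0.50 on the log2 scale (limma, adjusted p = 0.00326). For Ccna1, Cdk1, Ccnb2 and both probe sets of Cks2 every mouse of replicates 3 and 4 lay below every mouse of replicates 1 and 2. Such separation downward occurred in 16.1% of the probe sets tested. Ccnb2 had a log2 difference of -0.31, and the Cks2 probe sets had -0.27 and -0.39 (limma, adjusted p = 0.0118, 0.0114 and 0.00554). After quantile normalization these 3 were not called (adjusted p = 0.0675, 0.738 and 0.0592), while the brighter probe set of Cdc25c was, at -0.41. After median centring Aurkc was also called lower, at -0.41, as was that probe set of Cdc25c. The median of all probe sets was 0.056 as deposited, -0.072 after quantile normalization and -0.19 after median centring, so a small shift here depends on the scaling. Among all calls 4748 were lower and 6292 higher, against 6218 and 5109 after quantile normalization and 8460 and 3949 after median centring. Ccna1, Cdk1, Plk1 and Spdya kept their call and direction under both scalings.

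Spdya ran the other way on its brighter probe set, at 2858 ± 535 in replicates 3 and 4 and 1741 ± 266 in replicates 1 and 2 (SD, n = 4 each), a log2 difference of 0.70 (limma, adjusted p = 0.00365). Its dimmer probe set had a log2 difference of -0.096 (limma, adjusted p = 0.514). The log2 ratio of the brighter to the dimmer probe set was 1.16 to 1.68 in replicates 3 and 4 and 0.30 to 0.84 in replicates 1 and 2, without overlap. This ratio was chosen after the values were seen. An exact permutation test over 70 regroupings gave p = 0.0286, the smallest value possible. Any ratio without overlap gives that value, so the test adds no support. Aurkc had a log2 difference of -0.17 between these sets of mice (limma, adjusted p = 0.176). Signals from outside the testis moved with this split: all 6 measured epididymis genes were called higher in replicates 3 and 4, with a median log2 difference of 6.95. Lcn5, a lipocalin of the epididymis, read 10638 to 13714 in replicates 3 and 4 and 9.68 to 92.2 in replicates 1 and 2. The part of such tissue in the members' shifts was not tested.

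**Figure D3:**
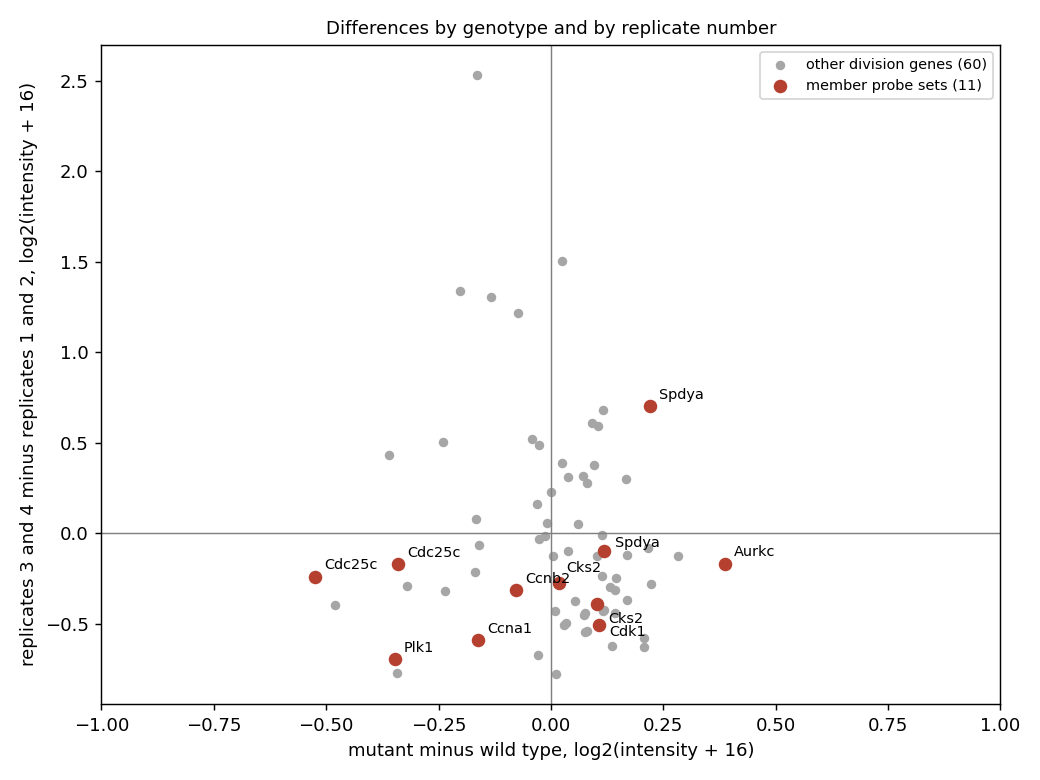
Log2 difference between genotypes (horizontal, mutant minus wild type) against log2 difference between replicates 3 and 4 and replicates 1 and 2 (vertical), for the 11 member probe sets (red, named) and the 60 other division genes (grey). Plk1, Ccna1 and Cdk1 lie low on the vertical axis, 1 probe set of Spdya lies high, and Aurkc lies farthest right.

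A list of 64 other genes of the divisions had 60 genes measured, and none was called between genotypes in limma without a block or with either block. Their log2 differences ran from -0.48 to 0.28 with a median of 0.05. Among the cyclins and Cdk partners, 9 measured genes had a median of 0.03. Cks1b, the paralogue of Cks2, had 0.17, the cyclin of the Cdk-activating kinase, Ccnh, 0.11, and Cdk2 0.076. Among the kinases and phosphatases that set the Cdk1 switch, 9 genes had a median of 0.10 and the widest range. Cdc25a, a phosphatase of the same family as Cdc25c, read 913, 1234, 680 and 722 in mutant replicates 1 to 4, against 1287, 1314, 1138 and 1114 in wild-type replicates 1 to 4. Its log2 difference was -0.48 (limma, adjusted p = 0.594), and mutant replicate 2 alone lay within the wild-type range. A second probe set of Cdc25a had -0.23 (limma, unadjusted p = 0.228). Ppp2r2a is a regulatory subunit of the phosphatase PP2A, which opposes Cdk1. Its brightest probe set was higher in every mutant, at 2869 ± 250 against 2353 ± 160 in wild type (SD, n = 4 each). The log2 difference was 0.28 (limma, adjusted p = 0.598). All mutants lay above all wild-type mice in 2.26% of the probe sets tested. The other probe sets of Ppp2r2a had 0.19 and -0.18, so they disagreed in sign. Mastl, the kinase that restrains PP2A, had -0.36.

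No gene of the remaining groups was called either. Genes of aurora kinases and the chromosomal passenger complex, in which aurora kinases act, had a median log2 difference of 0.07 over 7 genes. Of these, Cdca8, also called borealin, had 0.21, the spindle-pole kinase Aurka 0.14 and its activator Bora 0.092. Genes of the anaphase-promoting complex and the spindle checkpoint had a median of 0.03 over 13 genes, with 0.22 for the checkpoint protein Bub3 and -0.17 each for the subunit Anapc10 and the ubiquitin-conjugating enzyme Ube2c. The lowest gene of that group was Fzr1, an activator of the complex, at -0.34 (limma, adjusted p = 0.998, and 0.269 with the split as a block), named after its value was seen. Genes of cohesion and its release had 0.04 over 9 genes, with 0.17 for the kinase Nek2, 0.14 for securin (Pttg1) and -0.32 for the meiotic cohesin Rec8. Regulators of entry into division had 0.05 over 13 genes, with 0.22 for the Cdk inhibitor Cdkn1a, -0.16 for the transcription factor Foxm1 and -0.24 for E2f1. Each of these genes missed the threshold (limma, adjusted p from 0.898 to 0.999). These values are of 1 probe set per gene, the one with the highest mean, and other probe sets differed for some genes. A second probe set of Cdkn1a had a log2 difference of 1.29 (limma, unadjusted p = 0.0488, not called). Other probe sets had the opposite sign for Ccnh (-0.11), Bub3 (-0.041), Nek2 (-0.10, with 0.52 on another) and Foxm1 (0.047).

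Spermatid genes differed far more between the same arrays. Prm2, a protamine of late spermatids, read 289 to 2297 in mutants and 12052 to 23991 in wild type, a log2 difference of -4.17 (limma, adjusted p = 0.0376). Tnp2, a transition protein, had a log2 difference of -4.26 (limma, adjusted p = 0.0711, and 0.0120 with the replicate block). Of 10 elongating spermatid genes 1 was lower in the unblocked model, 9 when blocked by replicate number and 7 when blocked by the split, with a median of -2.30. Their summed intensity was 11462 to 37954 in mutants and 88888 to 152116 in wild type. Of 8 round spermatid genes none was called without a block or with the split and 1 was lower with the replicate block, with a median of -1.24. In RNA of a whole tissue, fewer cells of a type and less RNA per cell cannot be told apart. Of 9 genes of spermatocytes, the cells that enter the divisions, 1 was lower with either block, and the median was -0.05. The lowest difference among them was -0.85 (Pgk2), and the others lay between -0.25 and 0.21. Their summed intensity was 39921 to 43975 in mutants and 42610 to 47881 in wild type. A list for dividing cells of any type, with genes of DNA replication and proliferation and none of the members, had a median of 0.08 over 9 genes. Its summed intensity was 19631 to 23171 in mutants and 17989 to 21187 in wild type. Spermatogonial genes had 0.15 over 9, and no gene of these last lists was called in the 3 models.

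**Figure D4:**
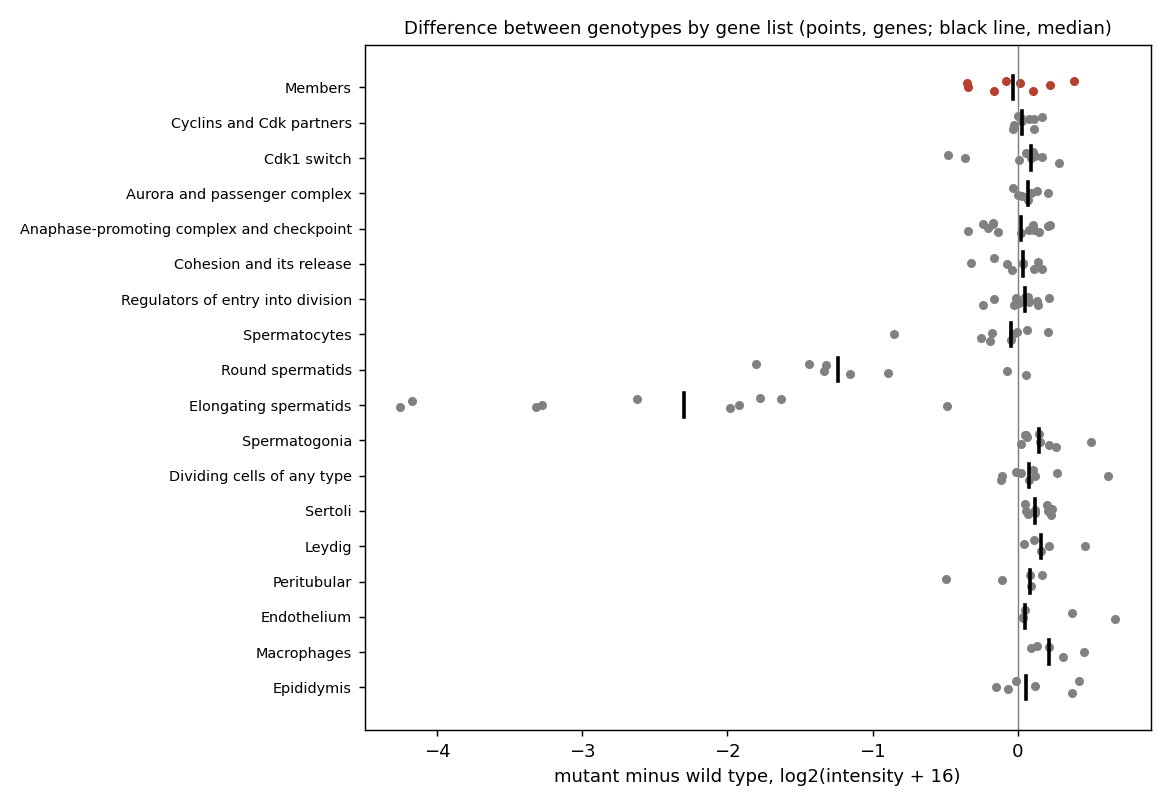
Log2 difference, mutant minus wild type, of each measured gene (point, 1 probe set per gene) by list, with the median as a black line. The 8 members (red) and the other division genes lie within 0.5 of 0, while elongating spermatid genes have a median of -2.30.

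Marker lists of the somatic cells had medians of 0.12 (Sertoli cells, 9 genes), 0.16 (Leydig cells, 5), 0.09 (peritubular cells, 5), 0.05 (endothelium, 5) and 0.22 (macrophages, 5). None of their genes was called without a block or with the replicate block, and 1 endothelial gene was called higher with the split as a block. The epididymis list had 0.06 between genotypes. The summed Sertoli intensity was 38908 to 52980 in mutants and 35845 to 44355 in wild type, so the sums overlapped. Whether the members' small differences moved with the make-up of the tissue was not tested.

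Genes most like the members were named by correlation of log2 values over the 8 arrays, which share the split of replicates. For the mean of the members' standardised values these were Actr1a, Cct3, Gpr62, Abhd17a and Syngr4, with Pearson's r from 0.993 to 0.997, and 8.01% of the other genes measured had an r above 0.9. For single members the nearest genes were Zfp574 and Hps4 for Ccna1, Lrrc46 and 2810025M15Rik for Ccnb2, Tubb3 and Cops8 for Cdk1, Coq4 and Fzr1 for Plk1, Fnta and Klhdc2 for Cks2, and Bbof1 and Gramd1c for Spdya, all with r between 0.982 and 0.997. Fzr1 was itself in the list of division genes. Aurkc was nearest to Pim3 (r = 0.981) and Sfr1 (r = 0.973). Cdc25c was nearest to Cdkn1c (r = 0.951) and Spryd7 (r = 0.948).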

How the data were processed

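Whole testis RNA of 8 mice was extracted with Trizol and columns and labelled with biotin for Affymetrix arrays, per the labels' protocols. Intensities, deposited on a linear scale, came from GCOS, a tool named in the submitters' processing notes with no version. The authors' intensity table holds no detection calls, and its arrays share 1 mean once 2% is trimmed at each end.

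Of 45101 probe sets, 64 controls were left out. Of the others 34945 had 1 gene symbol, 932 several and 9160 none, from the platform annotation, updated through Entrez identifiers to RefSeq symbols (GRCm38.p6). Probe sets with a mean above the 40th percentile were kept. Values were log2(intensity + 16), a scale that understates changes of dim genes. limma 3.58.1 in R 4.3.3 was used with eBayes and an intensity trend. Tests were two-sided, and p-values were adjusted by Benjamini-Hochberg over all kept probe sets. A gene of a list was represented by its kept probe set with the highest mean. Named genes were all member probe sets, up to 3 genes of each division group with the smallest p, the most correlated genes and 4 context genes. Figures used matplotlib 3.10.9.

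Members, lists and tests were chosen with earlier results of these data known. Same-numbered mice of both genotypes deviated together (r from 0.519 to 0.618 in the 4 pairs), in values that still held the split of replicates. This likeness does not show pairing by number. It comes from the data, not the labels, and 1 of the 4 mutants was closest to its own number. Each mutant was closest to a wild-type mouse on its own side of the split. On simulated arrays of mutant against wild type, 200 of 27022 probe sets were changed. Without a block, 17% of changes of 1 log2 unit and 71% of changes of 2 were recovered. The shares were 26% and 82% with the replicate block, and 46% and 91% with the split as a block. False calls numbered 0, 6 and 9. The simulation included the split and no effect of replicate number. The recoveries therefore do not show which model suits the real arrays. Alternatives covered blocks, left-out mice, scaling, pseudocounts, filters, variance models, array weights, 1 probe set per gene and the threshold.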

Additional observations from a re-analysis of the deposited data

Results flagged for a closer look

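Foxm1, a transcription factor of dividing cells, read 631 in mutant replicate 2, against 472 to 494 in the other mutants, a gap that takes up most of the group's range. Ppp2r2a read 2592 in wild-type replicate 2, against 2258 to 2290 in the other wild-type mice. These were 2 of 68 groups of 4 mice looked at in this way, and chance flags about 1 in 20. No member probe set stood out.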

How the results depend on the processing

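No member probe set was called between genotypes under any alternative run. With the replicate block the count of members called was 0, as without it, and the lowest adjusted p of a member over all alternatives was 0.0716 (limma, Aurkc, split as a block). Of 270 differences of single probe sets recomputed under the alternatives, 256 kept their direction and 14 turned, none of them called. These were Cdk1 (-0.05 within replicates 3 and 4, -0.03 without mutant replicate 1, -0.15 with array weights), the brighter Spdya probe set (-0.02 within replicates 1 and 2), the dimmer Cks2 probe set (-0.03 within replicates 3 and 4, -0.02 without mutant replicate 1, -0.11 with array weights) and the brighter Cks2 probe set (-0.08 within replicates 3 and 4, -0.05 to -0.04 without mutant replicate 1, mutant replicate 2 or wild-type replicate 4, -0.07 with quantile normalization, -0.02 with median centring, -0.14 with array weights). Leaving out 1 mouse gave -0.03 to 0.22 for Cdk1, -0.02 to 0.19 for the dimmer and -0.05 to 0.10 for the brighter Cks2 probe set. The cause was not tested. Over all alternatives the difference of Aurkc ran from 0.27 to 0.51, of the dimmer Cdc25c probe set from -0.69 to -0.35 and of the brighter from -0.41 to -0.26. Those of Plk1 (-0.35), Ccna1 (-0.16), Ccnb2 (-0.08) and the brighter Spdya probe set (0.22) moved more: leaving out 1 mouse gave -0.57 (without mutant replicate 2) to -0.21 (without mutant replicate 3 or 4) for Plk1, -0.33 (without mutant replicate 2) to -0.04 (without mutant replicate 4) for Ccna1, -0.17 (without mutant replicate 2) to -0.01 (without wild-type replicate 1) for Ccnb2 and 0.06 (without mutant replicate 3 or wild-type replicate 1) to 0.42 (without mutant replicate 2) for Spdya. Array weights gave -0.68, -0.43, -0.20 and 0.59 for these 4. Among division genes 1 was called with array weights, Cdc25a (-0.72, limma, adjusted p = 0.0309), and none otherwise. Over all probe sets the count of 31 was 646 with the replicate block, 485 with the split as a block and 701 when mutant replicate 1 was also left out, 0 within replicates 1 and 2, 58 with a pseudocount of 64, 668 with array weights and 149 at a threshold of 0.1. Leaving out 1 mouse gave 0 to 119: 0 without mutant replicate 3 or 4 or wild-type replicate 1, 2 or 3, 12 without mutant replicate 2, 56 without wild-type replicate 4 and 119 without mutant replicate 1. The counts of 0 went with 1366 to 2894 probe sets at an unadjusted p under 0.05. Between replicates 3 and 4 and replicates 1 and 2, the count of 7 member probe sets ran from 5 (quantile normalization) to 9 (median centring).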

Other observations

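The other division genes also differed between replicates 3 and 4 and replicates 1 and 2, in both directions. Of 60 genes 20 were lower and 11 higher in replicates 3 and 4 (limma), where 17.6% of all probe sets were lower and 23.3% higher. After quantile normalization 19 were lower and 12 higher, and after median centring 28 lower and 6 higher, so the balance depends on the scaling. The genes named here were chosen after their values were seen. Cdc20, Aurka, Cdca8 and Pttg1, which act at the spindle and at anaphase, had log2 differences of -0.58, -0.62, -0.63 and -0.44 (limma, adjusted p from 0.000265 to 0.000472). Smc1b, a meiotic cohesin, read 1877 to 2794 in replicates 3 and 4 and 310 to 695 in replicates 1 and 2, a log2 difference of 2.54. The checkpoint kinases Bub1 and Ttk had 1.34 and 1.31 (limma, adjusted p = 0.000454 and 0.000643). The cause of this split was not tested.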
